A study of Mus musculus with 10 samples.

Results

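TET2 is a dioxygenase that oxidises 5-methylcytosine in DNA, and its occupancy was mapped by chromatin immunoprecipitation and sequencing (ChIP-seq) in mouse embryonic stem cells, cultured lines from the early embryo that keep the capacity to form all tissues of the body. The regions described here are the common TET2 regions that lie inside gene bodies. Peaks of all 8 deposited lists that shared at least 1 bp were merged, on chromosomes 1 to 19, X and Y. A merged region was called common when all 4 lists from TET2 immunoprecipitations had a peak in it and none of the 4 control lists did. It was placed inside a gene body when it overlapped a protein-coding gene span of the mm10 (GRCm38) build and lay more than 1 kb from every protein-coding gene end. Of 79350 merged regions, 4521 were common, and 2052 of these were inside gene bodies.

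The wild-type libraries came from Tet2fl/fl cells, in which Tet2 is floxed but intact, precipitated with a rabbit polyclonal antibody raised to the TET2 N terminus. Tet2-/- cells precipitated with the same antibody were the matched control. The FLAG-TET2 libraries came from Tet2fl/fl cells in which endogenous TET2 carries a 2x-Flag tag, precipitated with anti-FLAG M2 affinity gel. The untagged parental Tet2fl/fl cells on the same gel were their control. Each of the 4 groups had 2 libraries, and all cells were grown in 15% serum with leukemia inhibitory factor (LIF), 3 µM of the GSK-3 inhibitor CHIR99021 and 1 µM of the MEK inhibitor PD0325901. Chromatin of every library was crosslinked with 2 mM disuccinimidyl glutarate, which links proteins to each other, and then with 1% formaldehyde. The labels do not say whether replicates were separate cultures or whether a line was a single clone, so p-values measure only the spread between these libraries. An input and an IgG library were not analysed here. The target lists held 18826 to 63612 peaks and the control lists 2261 to 36549. Cell identity could not be checked against marker genes, since the files used here hold peaks and no expression values, and the sequencing depth behind the lists is unknown.

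TET enzymes turn 5-methylcytosine into 5-hydroxymethylcytosine and further oxidised bases, which opens a route to unmethylated cytosine. Unlike TET1 and TET3, TET2 has no CXXC domain of its own, the zinc finger that binds unmethylated CpG-rich DNA. Gene bodies of vertebrates are largely methylated, and they hold many distal enhancers and alternative promoters besides exons and introns.

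The membership rule used the presence and absence of peaks, so the members were chosen by the same peak lists whose values follow, and these are given as a description. Most of the common regions inside gene bodies were short and sat deep in the gene. Their median width was 430 bp, with a middle range from 335 to 563 bp and extremes of 187 and 1626 bp. All 2052 lay wholly within a gene span, and 1907 held exactly 1 peak of each target list. The median distance to the nearest protein-coding gene end was 17.5 kb, with the tenth percentile at 2.81 kb, the ninetieth at 92.7 kb and the farthest at 901 kb. The 1 kb limit passed through a continuum of positions. Just inside it were regions in Map3k5, Clec12a and Cyrib, at 1.01 to 1.02 kb from a gene end. Just outside were regions at Best2, Slc6a7 and Rtn4rl1, at 0.988, 0.982 and 0.968 kb. The gene table has no exon records, so exonic and intronic positions were not separated.

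Some members overlapped the promoter window of an annotated transcript start inside the host gene, without always covering the start itself. The sequences in front of these starts are shown for the most enriched of these members, as reference sequence could be read for them. RefSeq promoter windows on GRCm38.p6 span 250 bases before to 50 after a start. Of 6389 such windows that lay inside gene bodies, 83 overlapped a member, which is 1.30%, and 629 overlapped a control region, which is 9.85%. Control regions are the merged regions that at least 2 of the 4 control lists share, so by the rule none of them is a member. The 83 windows belonged to 74 genes and 72 members. For 59 of the windows the start was of the host gene itself, 59 were of protein-coding genes and 24 of long non-coding RNAs, and 49 held the median of the 4 summits. Windows of neighbouring starts overlap each other and share bases.

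The windows below were picked after their values were seen, as the windows holding the median summit whose region had the highest enrichment rank, 1 per region. Each sequence is the 250 bases before the start, 5′ to 3′ on the strand of the transcript, with every CG in capitals. Gm46358 is a long non-coding RNA inside Fntb, the farnesyltransferase beta subunit gene (chr12:76910280-76910529, minus strand, 4 CG). Rgs12 encodes a regulator of G protein signalling (chr5:34998828-34999077, plus strand, 3 CG). Denn2b encodes a DENN domain protein (chr7:109616569-109616818, minus strand, 12 CG). Nt5c3 encodes a cytosolic pyrimidine nucleotidase (chr6:56901887-56902136, minus strand, 5 CG). Gm44867 lies inside Plekha7, an adherens junction gene (chr7:116286697-116286946, minus strand, 3 CG). Hip1 encodes a huntingtin-interacting clathrin adaptor (chr5:135489230-135489479, minus strand, 24 CG).
Gm46358: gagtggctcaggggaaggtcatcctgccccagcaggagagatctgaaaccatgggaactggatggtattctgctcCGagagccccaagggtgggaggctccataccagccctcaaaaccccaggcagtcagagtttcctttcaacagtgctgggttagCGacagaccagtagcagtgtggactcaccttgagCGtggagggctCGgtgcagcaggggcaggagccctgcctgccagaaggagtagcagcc
Rgs12: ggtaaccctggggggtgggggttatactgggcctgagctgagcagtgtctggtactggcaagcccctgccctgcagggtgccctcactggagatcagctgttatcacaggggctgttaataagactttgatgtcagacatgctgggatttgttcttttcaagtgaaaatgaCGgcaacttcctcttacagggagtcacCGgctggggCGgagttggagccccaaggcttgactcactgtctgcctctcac
Denn2b: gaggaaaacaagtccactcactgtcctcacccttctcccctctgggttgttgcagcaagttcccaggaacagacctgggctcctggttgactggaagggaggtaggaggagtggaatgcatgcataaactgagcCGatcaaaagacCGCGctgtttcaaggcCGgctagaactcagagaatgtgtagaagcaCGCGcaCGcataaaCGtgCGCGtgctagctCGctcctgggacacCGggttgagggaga
Nt5c3: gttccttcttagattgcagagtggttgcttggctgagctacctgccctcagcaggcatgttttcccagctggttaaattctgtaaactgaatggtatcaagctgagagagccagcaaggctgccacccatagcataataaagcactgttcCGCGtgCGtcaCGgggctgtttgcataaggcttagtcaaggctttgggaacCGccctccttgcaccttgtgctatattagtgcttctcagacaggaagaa
Gm44867: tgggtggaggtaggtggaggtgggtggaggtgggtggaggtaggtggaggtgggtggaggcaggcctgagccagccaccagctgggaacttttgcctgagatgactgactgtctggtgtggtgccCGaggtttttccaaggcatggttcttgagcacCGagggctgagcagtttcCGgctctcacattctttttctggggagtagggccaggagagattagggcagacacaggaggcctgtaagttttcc
Hip1: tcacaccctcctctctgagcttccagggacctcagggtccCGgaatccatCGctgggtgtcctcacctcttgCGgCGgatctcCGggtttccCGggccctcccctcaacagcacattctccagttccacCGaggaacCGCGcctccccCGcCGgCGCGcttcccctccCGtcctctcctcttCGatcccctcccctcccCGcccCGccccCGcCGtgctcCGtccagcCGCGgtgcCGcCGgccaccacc

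The 4 least CG-rich of these windows, Gm46358, Rgs12, Nt5c3 and Gm44867, held 3 to 5 CG, against 12 in Denn2b and 24 in Hip1. The region over the Gm46358 start had a fold enrichment at the summit, as deposited by the authors, of 19.9 and 11.3 in wild type, with 19.4 and 10.6 in FLAG-TET2. At the Rgs12 start the folds were 11.9 and 9.88 in wild type, with 15.4 and 11.7 in FLAG-TET2. At the CG-rich Hip1 start they were 13.9 and 9.62 in wild type, with 12.5 and 7.75 in FLAG-TET2. Their high rank is how these windows were chosen, and the CG-rich end rests on Hip1. Over the whole set of 300-base windows, the median number of CG was 8 in windows that overlapped a member, 24 in windows that overlapped a control region and 5 in windows inside gene bodies that overlapped neither. Median GC content was 56.0%, 64.7% and 50.7% in the same order.

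A search for 4 short motifs on both strands, none of which contains another, is given as a description of these windows. GGGCGG, the GC box that SP and KLF factors bind, was in 42 of the 83 windows over members, or 50.6%, against 27.7% of all windows inside gene bodies, 68.5% of those over control regions and 35.7% of all 32851 windows. AAGGTCA, the extended half-site that ESRRB binds, was in 8 windows, or 9.64%, against 5.15% of all windows inside gene bodies and 2.23% of those over control regions. ATGCAAAT, the octamer that POU factors bind, was in 5 windows, or 6.02%, against 1.57% and 0.795%. CACGTG, the E-box of MYC and related factors, was in 2 windows, or 2.41%, against 5.71% and 12.7%. The last 3 rest on 8, 5 and 2 windows.

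Members were less often near an annotated start than control regions were. Within 1 kb of the start of any promoter window were 104 of the 1962 members on chromosomes with windows, or 5.30%, and 583 of 3413 control regions inside gene bodies, or 17.1%. Of the bases of these gene bodies, 1.30% lay that close to a start. The median distance to the nearest start was 19.2 kb for members and 15.5 kb for control regions. The control regions are from the same merged set, so the figures describe 2 kinds of region and carry no test over libraries. A region near a start that had a control peak could not be a member, so the contrast is in part set by the rule.

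The members made up 45.4% of all common regions (exact 95% interval 43.9 to 46.9, counting error only). Another 453 common regions were at gene ends and 2016 outside genes. Inside gene bodies lay 27.4% of the 12940 control regions (exact 95% interval 26.7 to 28.2) and 37.1% of all merged regions. Gene bodies covered 988 Mb of 2722 Mb, or 36.3%, so members had a density of 2.08 per Mb, and common regions elsewhere a density of 1.42 per Mb. For control regions the order was the opposite, with 3.59 per Mb inside gene bodies and 5.42 per Mb elsewhere. The common set was thus denser inside gene bodies than outside, by a ratio of 1.46, while the ratio for control regions was 0.664. The rule keeps control peaks out of the common set, so these ratios are not independent of each other. With replicate 1 of the parental control left out of the rule, the density difference of 0.653 per Mb shrank to 0.149 and the share inside gene bodies to 37.7%. That control list was the longest of the 4. Without wild-type replicate 2, the shortest target list, 3417 members were counted and the density difference was 1.11. The share was then 45.7%, near the 45.4% of the full rule, and a difference per Mb grows with the number of regions.

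Of all 29467 merged regions inside gene bodies, 6.96% were common. Over the whole genome 5.70% of merged regions were common. Regions inside gene bodies were more often free of control peaks than regions at gene ends. Of 3437 regions inside gene bodies that had a peak in all 4 target lists, 59.7% had no control peak. At gene ends 8.89% of 5096 such regions had none, and outside genes 59.1% of 3409. Inside gene bodies, the control peak came from parental replicate 1 alone in 469 regions and from knockout replicate 2 alone in 240, against 5 for parental replicate 2 and 0 for knockout replicate 1. Of regions without a control peak, 1365 missed only the list of wild-type replicate 2 and 666 only that of FLAG-TET2 replicate 2. The corresponding numbers were 19 for wild-type replicate 1 and 14 for FLAG-TET2 replicate 1. The lists that most often decided membership were thus the shorter list of each target group and the longer list of each control group.

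The share of a library's own peaks that fell inside gene bodies does not depend on how lists were merged, but it counts the members' own peaks. By the rule these are gene-body peaks of target lists only, so the difference below is not independent of the rule. It was 33.3% and 29.9% in the wild-type lists and 27.0% and 26.5% in the knockout lists. In FLAG-TET2 it was 37.0% and 33.2%, and in the parental cells 30.1% and 30.2%. Both wild-type values were above both knockout values, and both FLAG-TET2 values above both parental values, while wild-type replicate 2 was below both parental lists. The mean was 33.4% ± 2.87 (SD, n = 4) in target lists and 28.4% ± 2.00 (SD, n = 4) in control lists. The difference of 4.90 points was of like size with each reagent, at 4.89 for the TET2 antibody and 4.91 for the FLAG gel. A two-sided exact permutation test within reagent gave p = 0.0556, the smallest that its 36 arrangements allow, so this design cannot pass 0.05.

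**Figure D1:**
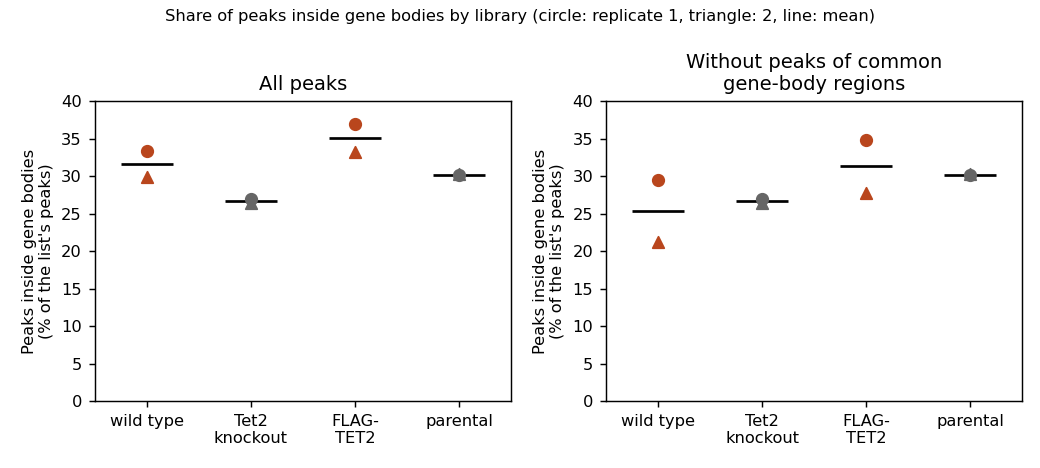
Share of each library's peaks inside gene bodies (y axis, percent), by group (x axis). Circles are replicate 1, triangles replicate 2 and lines group means, with all peaks on the left and with the peaks of common gene-body regions removed on the right. On the left both target lists of each reagent, 33.3% and 29.9% and 37.0% and 33.2%, are above their own controls.

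Members were a small part of each target list. They held 2089 peaks of wild-type replicate 1 (5.42%) and 2089 of replicate 2 (11.1%). They held 2101 of FLAG-TET2 replicate 1 (3.30%) and 2125 of replicate 2 (7.52%). With these peaks taken out, the target shares were 29.5% and 21.2% in wild type, with 34.8% and 27.8% in FLAG-TET2. By the rule every removed peak is a gene-body peak of a target list, so this lowers the target shares and leaves the control shares as they are, and it is no test of the remaining peaks.

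Fold enrichment at the summit is the authors' ratio over a control track. Deposited peak names carry the word IgG, but which control each list used is not given in the sources used here. Its scale differs between lists, so the values below are set side by side within a region and ranks are taken within a list. Values of a region are given with replicate 1 before replicate 2 and wild type before FLAG-TET2. Members ranged from 3.59 to 35.4 in wild-type replicate 1 (median 10.5) and from 2.86 to 20.6 in replicate 2 (median 6.79). In FLAG-TET2 they ranged from 3.55 to 38.8 in replicate 1 (median 12.1) and from 2.83 to 26.2 in replicate 2 (median 7.47). Replicate 1 of both groups, the longer list, had the larger folds. Ranked by −log10 q within its list, the median member was at percentile 84.3 and 61.4 in wild type, with 86.2 and 66.9 in FLAG-TET2. Members therefore sat in the upper part of the long lists and nearer the middle of the short ones. The lowest percentile of a member was in wild-type replicate 2 for 945 members (46.1%) and in FLAG-TET2 replicate 2 for 954 (46.5%).

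Averaged over the 4 lists, the percentile of a member had a median of 71.6, with a range from 13.7 to 98.5. It was above 90 for 277 members and below 50 for 309. In 439 members all 4 percentiles were above 75, and in 501 the lowest was below 25. The members were thus a graded set, from regions near the top of every list to regions near the bottom of at least 1.

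Enrichment was compared with that of common regions elsewhere within each library. All of these regions were chosen by the same lists, and the control peaks removed unlike parts of each kind. Of regions with a peak in all 4 target lists, 59.7% inside gene bodies, 59.1% outside genes and 8.89% at gene ends were kept. The values therefore describe what the rule left, and the p-values are no test of position. The median log2 fold of members minus that of common regions outside genes was -0.0036 on average (SD 0.029, n = 4 libraries, two-sided exact sign-flip permutation p = 0.75). Against common regions at gene ends the members were higher in 4 of 4 libraries, by 0.22 and 0.09 log2 units in wild type, with 0.38 and 0.25 in FLAG-TET2. The mean was 0.23 (SD 0.12), and the exact sign-flip permutation p of 0.125 is the smallest that 4 libraries allow. Against both kinds together the mean difference was 0.028 (SD 0.044, exact sign-flip permutation p = 0.375), and it was 0.11 without parental replicate 1 in the rule.

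Summit positions were compared between lists. The rule asks for overlapping peaks, which already brings summits near each other, so the distances are a description. Between any pair of target lists the median distance between summits was 23 to 26.5 bp, and 75.7% to 79.97% of members had summits within 50 bp. All 4 summits lay within 100 bp in 1701 members (82.9%). The median spread of the 4 summits was 52 bp, the ninetieth percentile was 146 bp and the widest was 909 bp. Across members, the Spearman correlation of the folds was 0.677 between the wild-type lists, 0.737 between the FLAG-TET2 lists and 0.505 to 0.608 between lists of different reagents. These correlations are over 2052 regions that share libraries, depth and base composition, and are descriptions.

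The leading members, ranked by mean percentile over the target lists, were in genes of several functions, and 11 are described. Gabbr2 encodes a subunit of the GABA-B receptor. Its member at chr4:46665266-46665942 had folds of 35.4 and 20.6 in wild type, with 35.6 and 23.2 in FLAG-TET2, and it lay at 99.0% of the gene length from the start. In Chn2, a GTPase-activating protein for RAC, the member at chr6:54096843-54097420 had folds of 27.8 and 16.2 in wild type, with 38.8 and 24.96 in FLAG-TET2. In both of these, as in the other 9, replicate 1 of each group was above replicate 2. The member in Dyrk1a, a protein kinase gene, at chr16:94601572-94602022 had the widest gap within wild type among these 11 as a ratio, with 26.3 and 11.9, and 35.5 and 26.2 in FLAG-TET2. The others were in Nxn (an oxidoreductase that binds Dishevelled), Sars (seryl-tRNA synthetase), Mrps31 (a mitochondrial ribosomal protein), Nop58 (a core protein of small nucleolar ribonucleoproteins), Kazn, Zyg11a, Cnot2 (a subunit of the CCR4-NOT deadenylase) and Grid1 (a delta-type glutamate receptor). Their summits were within 17 to 54 bp of each other in the 4 lists.

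**Figure D2:**
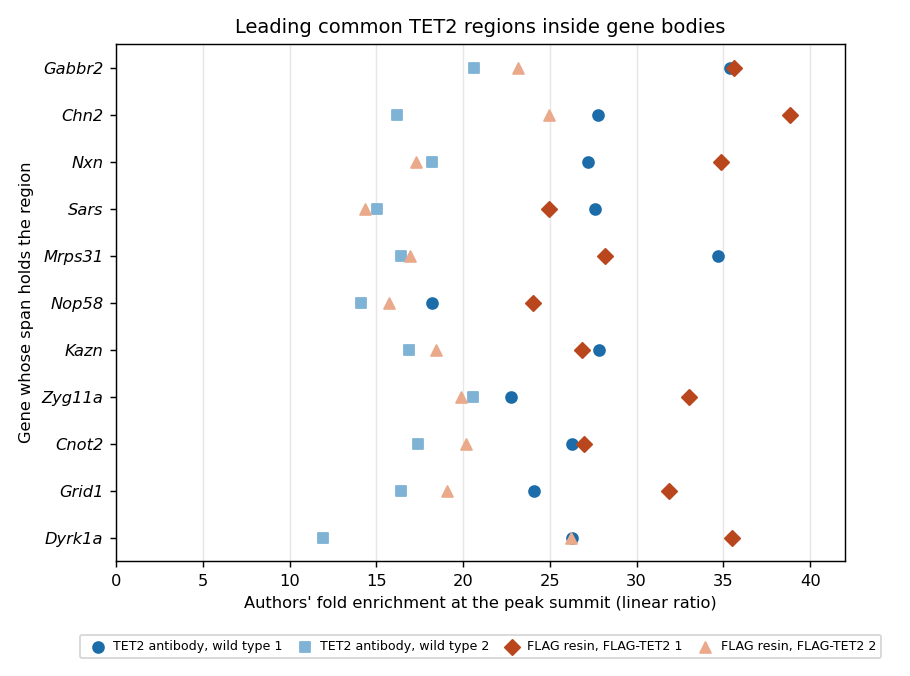
Authors' fold enrichment at the summit (x axis, linear ratio) of 11 leading common TET2 regions inside gene bodies, named by their gene (y axis), with 1 point per target library. In every row both replicate 1 lists are at or above the replicate 2 list of their own group, as in Gabbr2 with 35.4 against 20.6 and 35.6 against 23.2.

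The 2052 members fell in 1590 of the 19252 protein-coding genes with a gene body, or 8.26%, and control regions fell in 2721, or 14.1%. Of the members, 2030 were in exactly 1 gene, and 3 were in 24 overlapping genes of the gamma protocadherin cluster on chromosome 18, whose transcripts share their 3′ exons. Without these 24 genes, 1566 genes held a member. Single members were the rule, with 1234 genes holding 1, 228 holding 2 and 128 holding at least 3, or 104 without the protocadherin genes. Both a member and a control region were found in 593 genes, which are 37.3% of the genes with a member and 21.8% of those with a control region. In genes with several members, the median spacing of neighbours was 15.8 kb, and 140 of 551 neighbouring pairs were within 5 kb.

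Host genes were long. The median span of genes with a member was 81.6 kb, against 65.6 kb for genes with a control region and 21.4 kb for all genes with a gene body. The share of genes with a member was 0.718% below 10 kb, 3.67% from 10 to 20 kb and 7.46% from 20 to 50 kb. It was 14.5% from 50 to 100 kb, 24.7% from 100 to 200 kb, 27.5% from 200 to 500 kb and 43.4% above 500 kb. The number of members per Mb of gene body ran the other way at the long end. It was 2.16 below 10 kb, 3.20 from 10 to 20 kb, 2.88 from 20 to 50 kb, 2.77 from 50 to 100 kb and 2.70 from 100 to 200 kb, and then 1.498 and 0.904 in the longest classes. Long genes were thus likelier to hold a member while holding fewer per base.

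Etl4 held the most members, 8 in a span of 900 kb. All 8 were between 616 and 828 kb from its start, in the distal part of the gene, with folds in wild-type replicate 1 from 6.95 to 15.8. Pakap, which encodes an A-kinase anchoring protein, held 7 in 463 kb, all between 256 and 427 kb from the start. Its highest by mean percentile, at chr4:57690552-57691219, had 24.2 and 14.3 in wild type, with 22.6 and 11.5 in FLAG-TET2. Arhgap26, a GTPase-activating protein gene, also held 7, some of which also lay inside Gm5820 or Fgf1. Myo10, an unconventional myosin of filopodia, held 6 members in 191 kb and no control region, and 5 of the 6 were packed between 118 and 148 kb from the start. Rnf220, an E3 ubiquitin ligase gene, and Gse1 held 6 each. The D-type cyclin gene Ccnd3 held 5 in 94.6 kb. Merged regions of any kind numbered 54 in Etl4, 32 in Pakap, 38 in Arhgap26 and 20 in Myo10. They numbered 25 in Rnf220, 52 in Gse1 and 20 in Ccnd3. Control regions numbered 2 in Etl4, 4 in Pakap, 5 in Arhgap26, 1 in Rnf220, 3 in Gse1 and 3 in Ccnd3. Members in these genes were mixed in strength, as in Gse1, where the region at chr8:120334310-120335462 had 27.0 and 18.0 in wild type, with 24.5 and 15.6 in FLAG-TET2 and another at chr8:120529219-120529628 had 6.99 and 3.44, and 10.2 and 4.10.

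**Figure D3:**
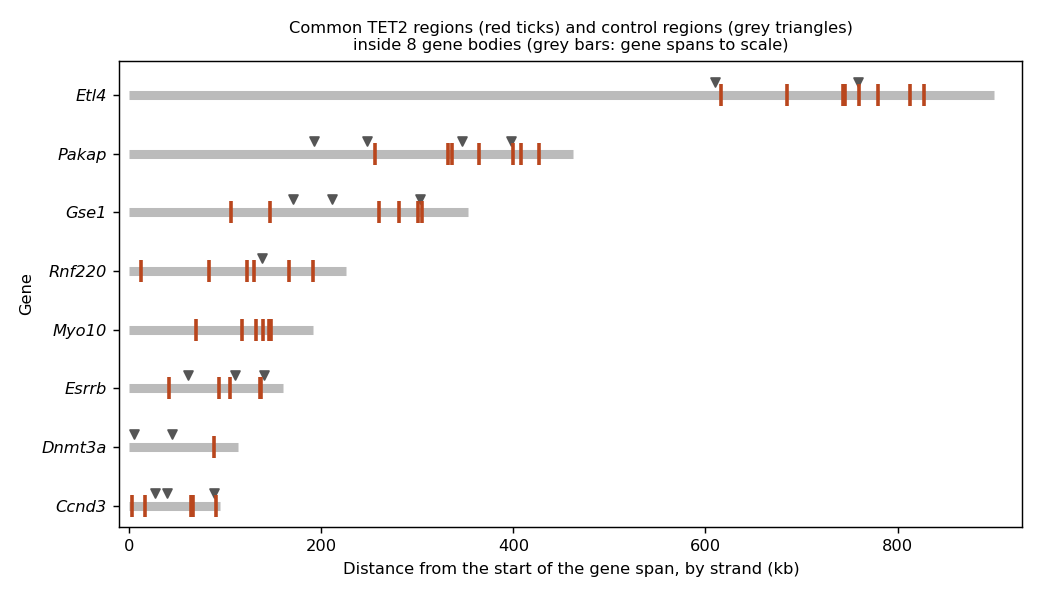
Common TET2 regions (red ticks) and control regions (grey triangles) along 8 gene spans (grey bars, to scale), with the x axis giving kb from the gene start along its strand. The 8 members of Etl4 lie from 616 to 828 kb, and 5 of the 6 in Myo10 from 118 to 148 kb.

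Per base, the densest genes with at least 3 members were short. Gnai2, an inhibitory G protein alpha subunit gene, held 4 in 21.3 kb. The highest by mean percentile, at chr9:107626831-107627364, had 26.9 and 17.4 in wild type, with 21.3 and 11.99 in FLAG-TET2. Ngfr, the p75 neurotrophin receptor gene, held 3 in 18.9 kb, all within 4.16 kb of its start, and they ran from 13.2 and 10.8 in wild type down to 4.49 and 3.19. Ddx58, which encodes the RNA sensor RIG-I, held 4 in 36.05 kb, with folds in wild-type replicate 1 from 10.5 to 17.7. The protocadherin genes Pcdhgc5 and Pcdhgc4 also ranked here through the 3 shared members of their cluster. Merged regions of any kind numbered 4 in Gnai2, 5 in Ngfr, 6 in Ddx58, 8 in Pcdhgc5 and 9 in Pcdhgc4, with 0 control regions in each. Within Gnai2 and Ngfr the members differed in strength more than they did within Ddx58.

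Along the gene, members thinned out from the start to the end. Strand and a single host gene were known for 1572 members and 2741 control regions. With the gene length cut into 5 equal parts, members had, from start to end, 2.65, 2.21, 2.01, 1.80 and 1.57 per Mb, with 24.4% of them in the first part and 14.4% in the last. Control regions had 5.21, 3.79, 3.06, 2.98 and 2.88 per Mb. Both kinds fell along the gene, and both were highest in the first of the 5 parts. By distance, members had 3.55 per Mb at 1 to 5 kb from the start, 3.39 at 5 to 10 kb, 2.63 at 10 to 20 kb and 2.27 at 20 to 50 kb. Beyond that they had 2.07 per Mb at 50 to 100 kb, 1.63 at 100 to 200 kb and 0.884 farther out. Only genes longer than a distance enter its band, so distance is mixed with gene length here. Over their whole bodies, genes of 200 to 500 kb had 1.498 per Mb and genes above 500 kb had 0.904. Control regions had 10.6 per Mb at 1 to 5 kb and 5.93 at 5 to 10 kb, and 1.98 beyond 200 kb. The gradient of members was thus the flatter one close to the start, and their median distance from it was 33.0 kb against 23.5 kb for control regions. Regions with control peaks cannot be members, so the 2 gradients are not independent.

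**Figure D4:**
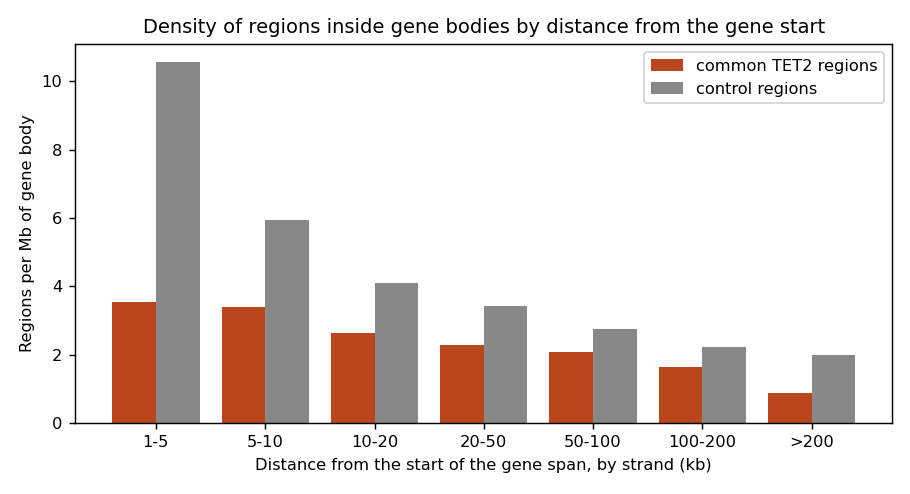
Density (y axis, regions per Mb of gene body) of common TET2 regions and control regions by distance from the gene start along the strand (x axis, kb). Members go from 3.55 per Mb at 1 to 5 kb to 0.884 beyond 200 kb, and control regions from 10.6 to 1.98. The far bands hold long genes only.

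The leading members in the first of these parts were in Frem2, an extracellular matrix protein of basement membranes, Acvr1b, the type I receptor of activin and Nodal, and Grik3, a kainate receptor subunit. In Frem2 (chr3:53650139-53650740) the folds were 17.2 and 10.2 in wild type, with 25.1 and 14.3 in FLAG-TET2. In Acvr1b (chr15:101181086-101181539) they were 18.7 and 14.7 in wild type, with 26.3 and 15.98 in FLAG-TET2. All 4 lists placed the Frem2 summit within 37 bp and the Acvr1b summit within 36 bp.

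Genes of 17 lists were then examined, each count to be read against the 8.26% of all genes with a gene body and against 2.13 members per Mb of gene body over all genes, which counts a region once for each gene that holds it. The lists differ in gene length, so both figures are given. In every list the median gene held 0 members, as over all genes. Control regions were in 14.1% of all genes, and by list they were in 26 of 39 axon and synapse genes, 20 of 35 adhesion genes, 14 of 48 chromatin regulators, 11 of 36 cytoskeleton regulators, 7 of 37 WNT, 7 of 35 FGF and 6 of 30 DNA methylation genes. They were in 6 of 26 hematopoietic and 6 of 26 housekeeping genes, in 3 genes each of the naive, core, formative, TGF-beta, lineage and fibroblast lists, and in 2 each of the imprinted and germline lists. More genes held a control region than a member in the axon, adhesion, chromatin, FGF, hematopoietic, germline, housekeeping and fibroblast lists.

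Genes of the naive state and of LIF signalling, which keep mouse stem cells undifferentiated, held members in 5 of 23 (21.7%), with 10 members in all and 14.1 per Mb, the highest density of the 17 lists. As a share of the list's merged regions, 10.99% were common, below the 13.2% of the imprinted, 13.04% of the fibroblast, 12.1% of the WNT and 11.1% of the core list and above the 7.02% over all genes. The orphan nuclear receptor gene Esrrb held 5 members in 161 kb together with 3 control regions, among 24 merged regions. Its strongest by rank, at chr12:86498547-86499225 and 138 kb from the start, had 16.4 and 6.94 in wild type, with 22.4 and 7.21 in FLAG-TET2, and its weakest, at chr12:86402825-86403163, had 5.71 and 4.17, and 5.92 and 5.05. In Lifr, the LIF receptor gene, the member at chr15:7116600-7117191 had 11.9 and 7.80 in wild type, with 23.9 and 11.9 in FLAG-TET2. In Pecam1, an adhesion molecule of stem and endothelial cells, the region at chr11:106669227-106669783 had 11.6 and 7.39, and 11.3 and 6.13. The remaining genes were Tfcp2l1 and Tbx3, both naive-state transcription factor genes.

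Core pluripotency genes held members in 3 of 20 (15.0%, 8.62 per Mb). These were Jarid2, a cofactor of Polycomb repressive complex 2, Sall4, a zinc finger factor, and Lin28a, an RNA-binding protein that blocks let-7 maturation. Jarid2 had the highest rank, with 12.2 and 7.19 in wild type, with 10.6 and 8.03 in FLAG-TET2 at chr13:44812440-44812732 and summits within 8 bp. The Lin28a region at chr4:134016384-134016985 was weaker, with 8.53 and 6.56 in wild type, with 6.14 and 5.47 in FLAG-TET2, and its summits were spread over 409 bp. Without parental replicate 1 in the rule, 5 genes of the core list held a member. Formative and primed genes, which mark the exit from the naive state, held members in 4 of 21 (19.05%, 7.83 per Mb), namely Dnmt3a, Etv4, Etv5 and Lef1. Etv4 and Etv5 are ETS factors downstream of FGF signalling. Etv4 had 17.6 and 8.91 in wild type, with 15.7 and 5.77 in FLAG-TET2 at chr11:101772505-101772868.

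Genes of DNA methylation and repair held members in 8 of 30 (26.7%, 7.14 per Mb), among them all 3 TET genes. Tet3 had the highest mean percentile, at chr6:83421740-83422124, with folds of 12.04 and 8.79 in wild type, with 24.4 and 9.52 in FLAG-TET2. Tet2 itself, floxed or deleted in these cells, had a region at chr3:133518184-133519187 with 9.54 and 5.52 in wild type, with 9.06 and 5.71 in FLAG-TET2. The extent of the knockout deletion is not given in the labels, so the absence of a knockout peak at this locus is not informative. The Tet1 region at chr10:62865229-62865628 was lower, with 7.89 and 3.98, and 6.37 and 4.08, and had a mean percentile of 36.8. Dnmt3a, a de novo DNA methyltransferase gene, had 10.6 and 11.5 in wild type, with 20.1 and 11.7 in FLAG-TET2 at chr12:3889714-3890331, 88.5 kb from its start. No member lay in the bodies of Dnmt1, the maintenance methyltransferase gene, or Dnmt3b. The remaining genes of the list were Parp1, which encodes the poly(ADP-ribose) polymerase of strand-break repair, Cxxc5, Kdm2b and Zbtb38. In Parp1 the region at chr1:180570811-180571610 had 12.8 and 8.47 in wild type, with 14.8 and 10.4 in FLAG-TET2.

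WNT signalling genes held members in 9 of 37 (24.3%, 5.96 per Mb), from the receptor level to the nucleus. The receptor gene Fzd5 had 17.7 and 9.62 in wild type, with 17.8 and 11.4 in FLAG-TET2 at chr1:64733473-64734195. The transcriptional repressor gene Tcf7l1 had 20.1 and 9.51, and 19.7 and 15.2, at chr6:72787166-72787798, 1.56 kb from its start. The corepressor gene Tle3 had 16.7 and 8.70, and 18.4 and 12.5. The others were Fzd3, Gsk3b (the kinase that CHIR99021 inhibits), Lef1, Tcf7l2, Tle1 and Znrf3. These cells are grown with that inhibitor in every group, controls included.

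FGF and ERK signalling genes held members in 6 of 35 (17.1%, 4.11 per Mb). Besides Etv4 and Etv5 these included the receptor gene Fgfr1, the inhibitor gene Spred2 and Rasgrp2. Fgfr1 had 12.8 and 11.3 in wild type, with 15.6 and 7.75 in FLAG-TET2 at chr8:25544881-25545319. Genes of TGF-beta, BMP and Nodal signalling held members in 4 of 29 (13.8%, 2.88 per Mb), the receptor genes Acvr1b and Bmpr1b, the shared effector gene Smad4 and the inhibitor gene Ski. The Bmpr1b region at chr3:141849195-141849522 had 13.1 and 9.67 in wild type, with 8.50 and 7.29 in FLAG-TET2. Smad4 was lower, with 8.38 and 6.95, and 10.3 and 5.49. In this list 8 genes held a member without FLAG-TET2 replicate 2, and 7 without parental replicate 1.

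Chromatin regulators held members in 13 of 48 (27.1%, 4.87 per Mb). The histone H3 lysine demethylase gene Kdm4c had 20.9 and 14.5 in wild type, with 22.4 and 14.8 in FLAG-TET2 at chr4:74367748-74368169. Cbx7, a chromobox subunit of Polycomb repressive complex 1, had 17.0 and 9.96, and 15.3 and 9.14. Ehmt2, the methyltransferase G9a, had 13.2 and 7.92, and 18.98 and 9.16. In each of these replicate 2 was the lower one with both reagents. Without wild-type replicate 2 in the rule, 20 genes of the list held a member.

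The largest shares of genes were in lists of long genes. Cell adhesion and matrix genes held members in 17 of 35 (48.6%, 3.30 per Mb), with a median gene length of 126 kb. Nectin2, an immunoglobulin-like adhesion molecule, had 20.4 and 16.4 in wild type, with 27.3 and 13.6 in FLAG-TET2 at chr7:19741596-19742232. Magi1, a scaffold of tight junctions, had 15.4 and 14.2, and 25.8 and 16.2, at chr6:93979240-93979769, in the middle of the gene and 304 kb from the start. Fn1, the fibronectin gene, had 17.9 and 11.3, and 22.8 and 9.52. Cytoskeleton regulators held members in 13 of 36 (36.1%, 3.61 per Mb). Dlc1, a GTPase-activating protein gene, had 20.5 and 13.9 in wild type, with 30.0 and 17.4 in FLAG-TET2, and Macf1, a linker of microtubules and actin, had 9.64 and 6.92, and 18.1 and 10.2.

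Axon and synapse genes held members in 14 of 39 (35.9%), but at 0.796 per Mb, below the figure for all genes, with a median gene length of 479 kb. The calcium channel gene Cacna1a had 20.4 and 7.56 in wild type, with 33.3 and 15.6 in FLAG-TET2 at chr8:84539436-84539939. This list, which includes Gabbr2 and Grid1 of the leading members, was the only one of the 17 above the all-gene share by count and below it per Mb.

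The lineage, hematopoietic, germline, housekeeping and fibroblast lists held few members by number. Of these, only the hematopoietic, germline and housekeeping lists were below all genes in share and per Mb. Lineage transcription factors held members in 3 of 32 (9.38%, 2.20 per Mb), Cdx2 of the trophoblast and intestine, Meis2 and Rfx4. The Cdx2 region at chr5:147304221-147305167 had 7.25 and 6.32 in wild type, with 14.8 and 6.34 in FLAG-TET2, with summits spread over 587 bp. Hematopoietic genes held a member in 1 of 26 (3.85%, 0.598 per Mb), Kit, the stem cell factor receptor gene, with 11.6 and 5.74, and 14.1 and 9.73. Germline genes held one in 1 of 24 (4.17%, 1.09 per Mb), Stk31, with 17.6 and 9.91, and 23.2 and 13.6. No housekeeping gene of 26 held a member. Fibroblast genes, which would mark feeder cells, held members in 2 of 21 (9.52%), at 3.22 per Mb, above the figure for all genes, Fn1 and Sparc, and Sparc had 10.8 and 6.29, and 10.1 and 5.67. Counts this small moved with single libraries. Without wild-type replicate 2 they were 5 for lineage, 3 for hematopoietic and 1 for housekeeping genes, and without FLAG-TET2 replicate 2 they were 7 for lineage and 2 for hematopoietic genes. A peak in a gene does not show that the gene is expressed.

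Imprinted genes, whose expression depends on the parent of origin, held members in 7 of 23 (30.4%, 6.11 per Mb). These were Grb10, Kcnq1, Plagl1, Zdbf2, Sgce, Usp29 and Sfmbt2. Grb10, a growth-limiting adaptor gene, had 18.1 and 9.68 in wild type, with 16.8 and 9.32 in FLAG-TET2 at chr11:11942481-11942935. Plagl1, a zinc finger factor gene, had 18.9 and 7.77, and 21.2 and 12.6, at chr10:13107638-13108679. Kcnq1, a potassium channel gene, had 17.4 and 13.9, and 11.9 and 8.91. Across the 16 lists with a member, the median of the members' mean percentile ran from 54.4 in the TGF-beta, BMP and Nodal list to 94.0 in the germline list, which rests on 1 member, beside 71.6 over all members.

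**Figure D5:**
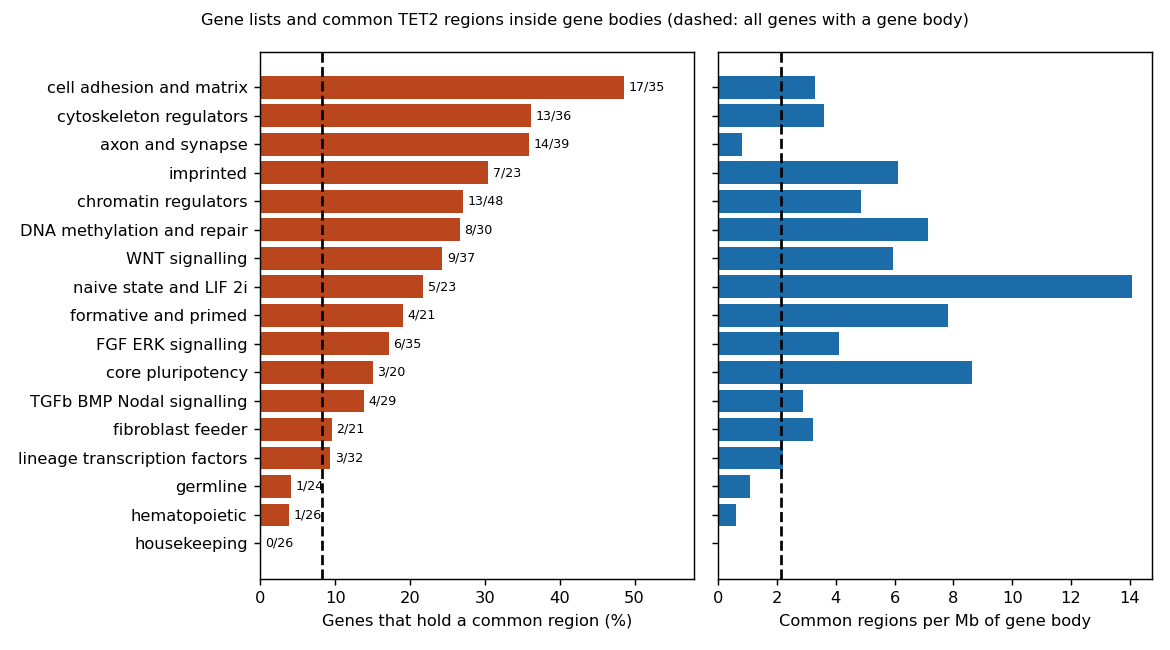
Share of genes with a common TET2 region inside the gene body (left, x axis in percent, with counts) and common regions per Mb of gene body (right) for 17 gene lists. Dashed lines mark all genes, 8.26% and 2.13 per Mb. The naive-state list has the highest density, 14.1 per Mb, from 10 members in 0.711 Mb, 5 of them in Esrrb.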

How the data were processed

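Each deposited list carries the peaks that the authors called in 1 of 8 libraries. Tools named without version or role in the submitters' processing notes are MACS2, Bowtie2, Trimmomatic, DESeq2 and DiffBind, and the build is mm10. The deposited lists give for each peak its score, its summit offset, −log10 p and −log10 q values and a linear ratio, the fold enrichment at the summit, and all of these are the authors' values. The lowest deposited −log10 q was 2.01. The lists hold no read counts, so the depth of each library is unknown and intervals cover counting error only. The two-sided exact tests had 4 target and 4 control libraries, permuted within reagent, or sign flips over the 4 target libraries.

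Members, gene lists and rules were chosen with earlier results of these data known. Lists were merged in Python 3.11.15 with pandas 2.3.3, NumPy 2.4.6 and SciPy 1.17.1 on 21 chromosomes, leaving out 2 to 34 peaks a list on other sequences. Gene spans were those of 21883 protein-coding genes of the RefSeq table for GRCm38.p6, 17491 of them with a strand, taken from the promoter table. Lists were ranked by −log10 q. The scripts were tested on simulated peaks. Genes are named as the 12 leading members by mean percentile, the 8 genes with most members, the 5 densest with at least 3, up to 3 by rank per list, the 3 regions on each side of the 1 kb limit, the TET and DNMT genes and the 3 leading members of the first of 5 equal parts of a gene. Other genes of a list are named without values, and some items under these rules are not reported here.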

Additional observations from a re-analysis of the deposited data

How the results depend on the processing

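Taking only peaks with −log10 q of at least 5 gave 1876 members, a share of common regions inside gene bodies of 43.7% and a density difference (gene bodies minus the rest) of 0.506 per Mb, against 2052, 45.4% and 0.653. Windows of 100 bp to each side of the summit in place of whole peaks gave 2168, 42.8% and 0.525. A gene-end limit of 500 bp gave a share of 46.9%, and one of 2000 bp gave 43.0%. With every list cut to the length of the shortest, 90 regions in 111 genes met the rule, with a share of 42.9% and a density difference of 0.0219, as fewer peaks enter. Leaving out 1 library at a time gave 2052 to 3417 members, a share of 37.7% to 45.7%, 1590 to 2378 genes and a density difference of 0.149 to 1.11. A list left out takes a condition out of the rule. Apart from altered merging, the numbers of members and genes could therefore only stay or rise. The number of members was highest without wild-type replicate 2, and the share was lowest without parental replicate 1. The difference in the share of peaks, target minus control, ran from 3.97 to 5.84 points, and that in median log2 fold, members minus other common regions, from 0.020 to 0.11, the highest without parental replicate 1. Without the members' peaks the difference in share was -0.139 points, but the rule makes these gene-body peaks of target lists only, so this is no test. Per Mb the axon and synapse list fell below all genes, at 0.796. Gene lists were also counted with each library left out and at −log10 q of at least 5, chosen after seeing the data.

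With the replicate number as a block, the difference in share was 4.90 points, from same-numbered pairs of 6.33, 3.45, 6.84 and 2.99 (exact sign-flip permutation p = 0.125, the smallest 4 pairs allow). The members' log2 folds gave a correlation of 0.0874 between the replicate deviations of wild type and FLAG-TET2. It does not cover the control lists or a shift shared by all regions, so it cannot decide whether same-numbered libraries are pairs. The main test does not take the numbers as pairs. No test passed 0.05 in any setting, and none could at these numbers. Depth is unknown, so a missing peak is no proof of absent TET2.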

Other observations

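Members were sparse on the X chromosome, with 14 in all and 0.320 per Mb of gene body, against 1.44 (chromosome 13) to 3.22 (chromosome 8) per Mb on the autosomes. Control regions inside gene bodies were sparse there too, with 0.389 per Mb on the X and 2.45 to 5.23 on the autosomes. The Y chromosome held no member. The share of X copies in these cells was not measured.

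Of annotated microRNA hairpins, 3 overlapped a member. No share over all hairpins inside gene bodies is given beside this count, so it is a list of positions only. These were Mir6352 inside Epha4, an ephrin receptor gene, Mir7011 inside Sema4a, a semaphorin gene, and Mir330 inside Eml2, a microtubule-associated protein gene.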
